A study of Mus musculus with 28 samples.

Results

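Astrocytes take up glutamate and GABA released by neurons, move water and potassium at their endfeet on blood vessels, and are coupled to each other by gap junctions. They also differ between brain regions, and some of their best known genes are used mainly in the diencephalon or mainly in the telencephalon. This account follows 10 astrocyte genes, named by symbol and matched to 1 Ensembl identifier each, among the 29878 genes counted in the series, and all 10 passed the filter on low counts that left 14979 genes for testing. They are *Slc1a2* and *Slc1a3*, the glutamate transporters GLT-1 and GLAST; *Slc6a11*, the GABA transporter GAT-3; *Aqp4*, the water channel of endfeet; *Gja1*, the gap junction protein connexin 43; *Gfap*, an intermediate filament protein; *Agt*, angiotensinogen, the precursor of angiotensin; *Aldh1l1*, an enzyme of folate metabolism; *Aldoc*, the glycolytic enzyme aldolase C; and *S100b*, a calcium-binding protein.

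RNA was sequenced from the dorsal striatum (DS), ventral striatum (VS), hypothalamus (HY) and motor cortex (MC) of mice of 3 genotypes, wild-type (WT), *Hdc* heterozygous (het) and *Hdc* knockout (KO). *Hdc* encodes histidine decarboxylase, the enzyme that makes histamine, and the KO is used as a model of tic disorders. All mice were adult males 2 to 3 months old, backcrossed to C57Bl/6. DS had 2 WT, 3 het and 2 KO libraries, VS and HY each had 3 WT, 3 het and 2 KO, and MC had 1 WT, 2 het and 2 KO, 28 libraries in all. Library names carry a number from 1 to 8, which the labels do not explain, and p-values therefore measure the spread between libraries, which may be in part technical.

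Counts on genes ran from 3536802 to 5150280 per library. Summed markers fitted the labelled regions: 7 striatal genes summed to 5609 to 8610 CPM (read counts scaled to library size) in DS, 1120 to 2622 in VS and 138 to 172 in HY and MC together, while 8 hypothalamic genes summed to 160 to 266 CPM in HY and to at most 12.6 elsewhere. *Hdc* itself had 54 to 66 counts in the KO libraries of HY against 79 to 111 in WT, but 29 to 51 in the KO libraries of the other regions against 0 to 6 in WT. Gene-level counts therefore did not show the loss of *Hdc*, and KO below means labelled KO. Part of the DS libraries stood apart: 8 choroid plexus genes, among them *Ttr*, summed to 2831 CPM in DS KO number 8 and 60.5 in DS het number 6, against 1.20 to 9.32 in the other 5 DS libraries. Cortical genes summed to 442 CPM in DS KO number 7, against 128 to 246 in the other DS libraries.

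The sequence just before a RefSeq transcription start is shown for the pair of members with the largest regional differences, *Agt* and *Slc6a11*. It is also shown for *Slc1a2*, which differed in the opposite direction. Each is the 250 bases before that start, on GRCm38.p6, read on the gene's own strand. RefSeq windows were matched for 9 of the 10 members. Capitals mark TTGGC (a site of nuclear factor I), TTCNNNGAA (a STAT site) and TATAAA (a core promoter box), each searched on both strands. The window of *Agt* lies on the minus strand at chr8:124569707-124569956, that of *Slc6a11* on the plus strand at chr6:114130991-114131240, and that of *Slc1a2* on the plus strand at chr2:102706188-102706437. The *Slc1a2* window is inside the longer GENCODE gene, which starts at 102658659. It therefore precedes an internal start, not the start of the GENCODE gene, and is not like the other windows shown in this respect.
Agt: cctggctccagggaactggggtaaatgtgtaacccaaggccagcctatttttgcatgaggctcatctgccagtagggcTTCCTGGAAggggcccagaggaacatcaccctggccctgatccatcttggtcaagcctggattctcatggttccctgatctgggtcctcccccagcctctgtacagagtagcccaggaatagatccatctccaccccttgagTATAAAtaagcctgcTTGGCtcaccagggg
Slc6a11: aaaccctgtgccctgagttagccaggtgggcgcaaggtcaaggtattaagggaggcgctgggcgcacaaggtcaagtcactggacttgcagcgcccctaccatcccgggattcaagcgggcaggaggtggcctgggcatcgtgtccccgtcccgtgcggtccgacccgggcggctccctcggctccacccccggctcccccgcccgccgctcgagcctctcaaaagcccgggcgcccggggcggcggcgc
Slc1a2: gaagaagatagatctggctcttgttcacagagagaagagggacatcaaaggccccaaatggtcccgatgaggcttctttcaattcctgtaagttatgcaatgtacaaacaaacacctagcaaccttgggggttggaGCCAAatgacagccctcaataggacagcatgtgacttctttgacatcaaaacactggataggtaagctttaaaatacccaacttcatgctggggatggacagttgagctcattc

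The *Agt* window held 1 match to each of these 3 motifs, that of *Slc1a2* held 1 TTGGC, read here as GCCAA, and that of *Slc6a11* held none. Among the windows not shown, that of *Slc1a3* held 1 TTCNNNGAA and 1 TATAAA, and that of *S100b* held 3 TTGGC. For *Aldoc*, a window held 1 TTGGC and another held 2 TTCNNNGAA. The windows of *Gfap*, *Gja1* and *Aldh1l1* held none. Over the 250-base windows of 32851 RefSeq promoters, 41.5% held TTGGC, 7.02% held TTCNNNGAA and 12.4% held TATAAA. The full nuclear factor I site was in 0.0365% of these promoters and in none of the windows shown. The windows also differed in base composition, with 71.2% G and C in *Slc6a11*, 55.6% in *Agt* and 44.8% in *Slc1a2*.

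Levels between genes were compared per kilobase of exon (RPKM). *Slc1a2* was the most abundant, at 377 ± 106 RPKM (SD over 28 libraries), and *Aldh1l1* the least, at 4.39 ± 0.907. *Aldoc* was at 101 ± 21.8, *Slc6a11* at 85.9 ± 66.6, *S100b* at 65.3 ± 11.2, *Slc1a3* at 31.9 ± 4.47, *Agt* at 22.4 ± 24.6, *Gfap* at 9.80 ± 6.0, *Gja1* at 9.27 ± 2.28 and *Aqp4* at 8.36 ± 3.10. The SD of *Agt* was larger than its mean. With the length of the longest transcript in place of all exons, *Slc1a3* was at 61.4, *Gja1* at 24.5 and *Gfap* at 15.6. Only *Slc1a2* (220 to 562 RPKM) lay apart from all the others. The range of *Slc6a11* (15.6 to 193) covered those of *Aldoc*, *S100b* and *Slc1a3*. That of *Agt* (0.476 to 65.9) covered those of *Slc1a3*, *Gfap*, *Gja1*, *Aqp4* and *Aldh1l1*. The ranges of *Gfap*, *Gja1* and *Aqp4* also overlapped each other.

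**Figure D1:**
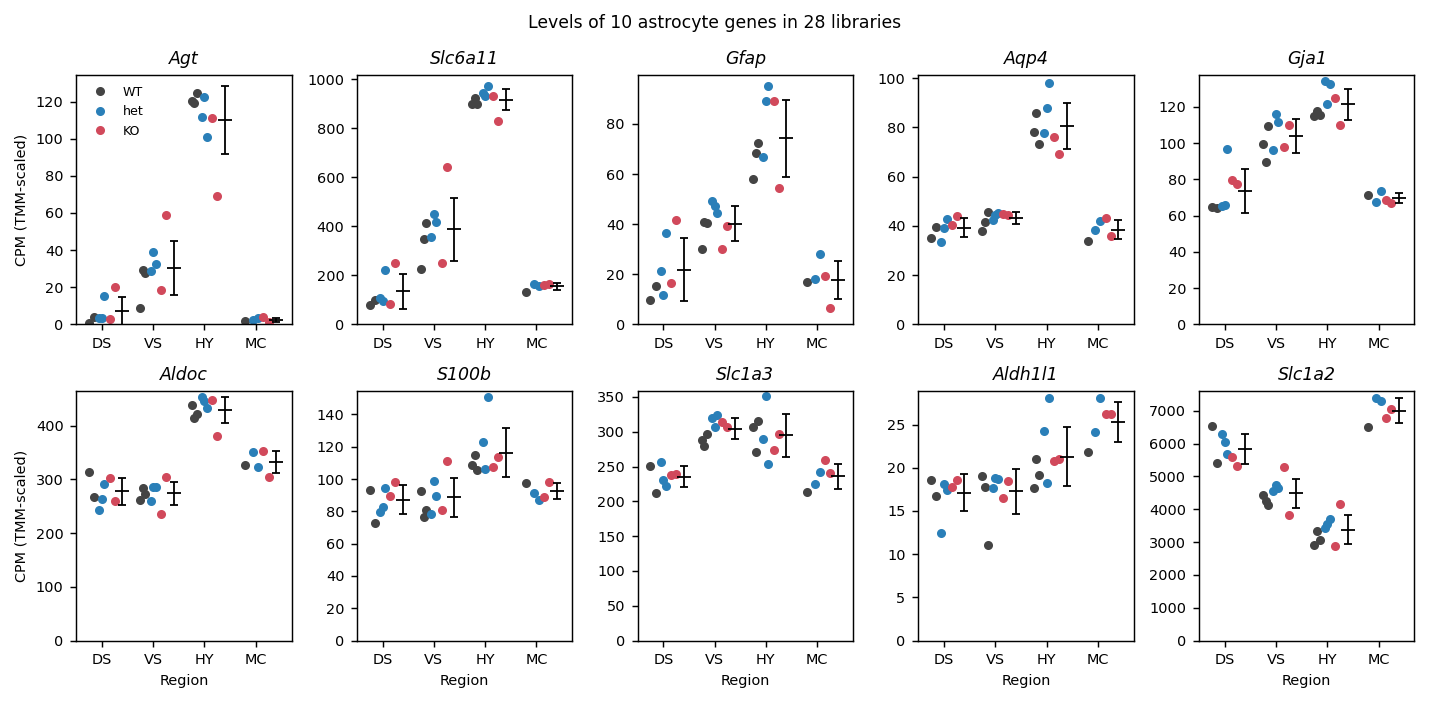
Each panel plots the TMM-scaled CPM of 1 gene (y axis, from 0) in the 4 regions (x axis), with 1 point per library coloured by genotype, and a bar giving the mean and SD over the libraries of a region (the lower bar of *Agt* in DS is cut off at 0). *Agt* and *Slc6a11* are highest in every HY library, while *Slc1a2* runs the other way, from 7007 CPM on average in MC to 3378 in HY.

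Of the 10 genes, 8 were higher in HY than in MC and *Slc1a2* was lower. Over all genes tested, 48.2% passed the test in this comparison, 25.4% higher and 22.9% lower. Against DS, 9 were higher in HY and *Slc1a2* was lower, where 56.1% of all genes passed, 30.7% higher and 25.5% lower. Against VS, 8 were higher and *Slc1a2* was lower, where 43.6% of all genes passed, 23.9% higher and 19.7% lower. The median log2 difference of the 10 genes was 0.58, 0.67 and 0.51 in these comparisons, against 0.05, 0.04 and 0.03 over all genes tested. All tests here are likelihood ratio tests of edgeR with Benjamini-Hochberg adjustment over the 14979 genes. In bulk tissue, more astrocytes and more RNA per astrocyte cannot be told apart.

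Libraries of HY and MC did not overlap in 8 of the 10 genes, against 30.3% of all genes, and those of HY and DS in 8 (27.9%). HY and VS did not overlap in 5 (16.0%).

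**Figure D2:**
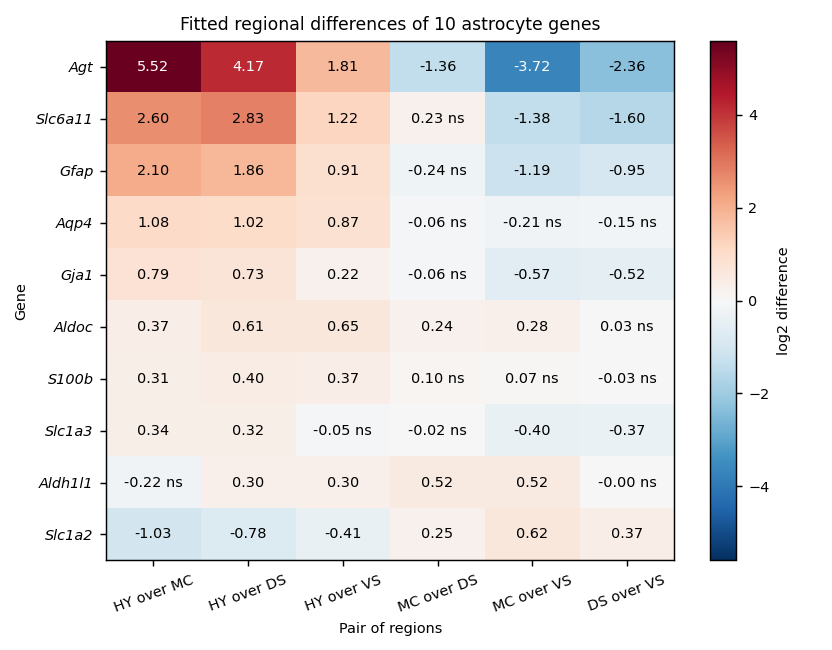
Each cell gives the fitted log2 difference of 1 gene (rows) between 2 regions (columns), coloured from blue (lower in the region named first) to red (higher), with ns where the adjusted p was 0.05 or more. The 3 HY columns are positive in every row but those of *Slc1a2*, *Aldh1l1* in HY over MC and *Slc1a3* in HY over VS.

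*Agt* had the steepest regional gradient of the 10. Its CPM had a lowest, median and highest value of 69.2, 115 and 125 in the 8 HY libraries, 8.94, 29.0 and 58.9 in the 8 VS libraries and 0.899, 3.68 and 20.2 in the 7 DS libraries. In MC the 5 libraries had 1.68 CPM in WT, 2.17 and 3.34 in het, and 4.03 and 1.08 in KO. Every HY library was above every library of the other regions, and every VS library was above every MC library. VS and DS overlapped only through DS het number 6 and KO number 8. HY was higher than MC by 5.52 ± 0.42 on the log2 scale (± SE; 46.0-fold; adjusted p = 1.7e-23), than DS by 4.17 ± 0.34 and than VS by 1.81 ± 0.30. These MC values rest on 4 to 18 reads per library.

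*Slc6a11*, which clears GABA from the extracellular space, was likewise highest in HY and next in VS, but was not lowest in MC. Its CPM had a lowest, median and highest value of 828, 926 and 973 in HY, 226, 384 and 641 in VS and 78.5, 101 and 252 in DS. In MC it was at 130 in WT, 165 and 157 in het and 162 and 163 in KO. HY stood above all other regions, and MC lay inside the range of DS, with a median of 162 against 101. HY was higher than DS by 2.83 ± 0.19 (adjusted p = 7.5e-39), than MC by 2.60 ± 0.22 and than VS by 1.22 ± 0.19, and MC and DS did not pass the test (0.23 ± 0.23, adjusted p = 0.44), but did without DS KO number 8 (0.57) and without DS numbers 6 and 8 (0.73).

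*Gfap* had 54.4, 70.5 and 95.3 CPM as the lowest, median and highest of HY, 30.0, 40.6 and 49.3 of VS and 9.59, 16.3 and 41.7 of DS. The MC libraries had 16.8 in WT, 18.1 and 28.0 in het and 19.5 and 6.49 in KO. HY was apart from all other regions, and VS was apart from MC. DS overlapped both VS and MC, but VS only through DS het number 6 and KO number 8. HY was higher than MC by 2.10 ± 0.23, than DS by 1.86 ± 0.21 and than VS by 0.91 ± 0.19.

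*Aqp4*, by contrast, divided HY from the other 3 regions with little among those. HY had 69.0, 77.8 and 98.2 CPM as lowest, median and highest, against 38.1, 44.4 and 45.4 in VS, 33.4, 39.4 and 44.1 in DS, and 33.6 to 43.0 in MC. HY was higher than MC by 1.08 ± 0.09, than DS by 1.02 ± 0.08 and than VS by 0.87 ± 0.07 (adjusted p = 4.5e-30 for the last), and none of the 3 pairs among VS, DS and MC passed the test. MC over VS (-0.21 ± 0.10) did pass without KO number 7 of MC (-0.26) or WT number 1 of VS (-0.23), and DS over VS passed with library size alone (-0.30).

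*Gja1* had a median of 120 CPM in HY, 105 in VS, 65.7 in DS and 68.3 in MC. HY and VS overlapped (110 to 134 against 89.4 to 116) and differed by 0.22 ± 0.08 (adjusted p = 0.011), while MC and DS did not pass the test. Without KO number 7 of HY, or without KO number 7 of VS, the difference between HY and VS no longer passed.

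*Aldoc* and *S100b* differed less. *Aldoc* had a median of 436 CPM in HY, 327 in MC, 279 in VS and 268 in DS, and HY did not overlap any other region. It was also higher in MC than in DS (0.24 ± 0.08) and VS (0.28 ± 0.08). *S100b* had a median of 111 CPM in HY, 91.5 in MC, 89.6 in DS and 85.3 in VS. HY was higher than each by 0.31 to 0.40, and the other 3 regions did not pass the test among themselves.

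*Slc1a3* was high in HY and VS and low in DS and MC. Its medians were 293, 307, 238 and 241 CPM in that order, and VS did not overlap DS or MC. HY and VS did not pass the test (-0.05 ± 0.07), nor did MC and DS, whereas HY was higher than DS by 0.32 ± 0.07 and VS was higher than DS by the same test (DS over VS -0.37 ± 0.07).

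*Slc1a2*, the main glutamate transporter of the forebrain, ran against the other genes. Its CPM had a lowest, median and highest value of 2895, 3379 and 4163 in HY, 3833, 4500 and 5285 in VS and 5304, 5675 and 6542 in DS. The MC libraries had 6500 in WT, 7386 and 7309 in het and 6781 and 7060 in KO. The order was therefore MC, DS, VS and HY from high to low, and each neighbouring pair passed the test. MC and DS overlapped, and so did VS and HY, the latter pair only through HY KO number 8 (4163 CPM). HY was lower than MC by -1.03 ± 0.09 on the log2 scale (adjusted p = 2.2e-29), and MC over DS, the smallest step, was 0.25 ± 0.09 (adjusted p = 0.018), and did not pass without DS WT number 2 (0.21) or without DS numbers 6 and 8 (0.23). The pair of glutamate transporters thus differed in order between regions. In GENCODE M21, 1.44% of the exon bases of *Slc1a2* are shared with a gene on the opposite strand.

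*Aldh1l1* was highest in MC. It had 21.9 in WT, 24.1 and 28.0 in het and 26.2 and 26.2 CPM in KO there, and medians of 20.9 in HY, 18.1 in VS and 17.7 in DS. MC was higher than DS and VS by 0.52 ± 0.13 each, with no overlap, and HY over MC did not pass (-0.22 ± 0.12, adjusted p = 0.13). HY was higher than DS and VS by 0.30 ± 0.11 each, and each of these was lost when 1 of 4 libraries was left out: number 2 of HY WT or number 7 of HY KO for both, DS het number 4 or DS WT number 2 for DS, and VS KO number 7 or VS WT number 3 for VS. Neither passed with DESeq2. In GENCODE M21, 13.4% of its exon bases are shared with 2 other genes, 1 of them antisense, neither of which has a count here.

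Among the telencephalic regions, 3 of the 10 genes were higher in MC than in DS (*Aldh1l1*, *Slc1a2* and *Aldoc*) and *Agt* was lower. In this comparison 43.4% of all genes passed, 22.0% higher and 21.4% lower. The *Agt* difference was -1.36 ± 0.45 (adjusted p = 0.0077), and without DS KO number 8 it was -0.68 and did not pass (adjusted p = 0.20), as also without DS WT number 2 (-0.88) and with the quasi-likelihood test (-1.33). Against VS, the same 3 were higher in MC and 5 were lower (*Agt*, *Slc6a11*, *Gfap*, *Gja1* and *Slc1a3*), where 43.7% of all genes passed, 21.5% higher and 22.2% lower. In DS over VS, *Slc1a2* was higher and those 5 were lower, where 29.0% of all genes passed, 14.6% higher and 14.4% lower. In that pair libraries did not overlap in 2 of the 10 genes (9.65% of all genes). In *Agt* and *Gfap* the overlap came only from DS het number 6 and KO number 8. It came only from that KO library in *Slc6a11* and only from that het library in *Gja1*. MC and DS did not overlap in 1 gene (26.4%), and MC and VS in 8 (24.6%).

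Other genes of the same pathways were read from lists, against 30.7% of all genes tested that were higher in HY than in DS and 25.5% that were lower. Those of GABA uptake and breakdown were higher in HY than in DS in 5 of 6 tested, among them *Slc6a12* (2.58 on the log2 scale) and *Slc6a13* (1.18), which encode further GABA transporters, and *Maob* (1.02), a monoamine oxidase. Those of glutamate handling were near these shares, with 2 of 7 higher, *Slc7a11* (1.16), the cystine and glutamate exchanger, and *Glud1* (0.49), glutamate dehydrogenase, and 3 lower, among them the metabotropic receptors *Grm5* (-1.79) and *Grm3* (-1.58). Of the water, potassium and endfoot genes, 7 of 10 were higher and 2 lower. The potassium channels *Kcnj16* (2.57) and *Kcnj10* (1.57) and the sodium pump subunit *Atp1b2* (1.30) were the largest.

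Of 4 gap junction partners, *Gjb6* (1.90) and *Gjb2* (1.66), connexins 30 and 26, were higher in HY than in DS and *Tjp1* (-0.17) was lower. Of 4 intermediate filament partners, *Vim* (0.89) and *Synm* (0.72) were higher and *Plec* (-0.65) was lower. The renin-angiotensin genes were near the shares over all genes (30.7% higher, 25.5% lower): of 7 tested, 2 were higher, *Atp6ap2* (0.55) and *Lnpep* (0.48), and 3 lower, namely *Mas1* (-2.79), a receptor, *Ace* (-1.09), the converting enzyme, and *Enpep* (-0.87), an aminopeptidase. *Ren1*, *Agtr1b* and *Agtr2* had at most 3, 6 and 5 counts in any library and were not tested. Of 8 folate enzymes tested, 3 were higher, among them *Mthfd2* (1.31), and 1 was lower; of 18 glycolysis and glycogen genes, 7 were higher, among them *Pygm* (1.34), glycogen phosphorylase, and 5 lower, against the same shares over all genes; and of 6 further S100 genes none passed or had an unadjusted p under 0.05.

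Of 34 further astrocyte genes, 21 were higher in HY than in DS and 7 lower, against 30.7% and 25.5% of all genes. *Slc14a1* (1.87), a urea transporter, and *Sparcl1* (1.20) were higher, and *Dio2* (-2.27), the deiodinase that activates thyroid hormone, and *Gldc* (-1.95), of glycine cleavage, were lower. Of 5 genes reported for astrocytes outside the telencephalon, 4 were higher in HY than in DS, MC and VS alike: *Itih3* (3.86 over DS), *Sparc* (2.81), *Zic1* (1.68) and *Slc6a9* (1.35). Of 4 reported for telencephalic astrocytes, 2 were lower in HY than in DS, *Lhx2* (-1.56) and *Mfge8* (-0.74), and 2 were higher, *Lrig1* (1.58) and *Ptprz1* (0.76). Of 13 reactive astrocyte genes tested, 10 were higher and 1 lower (all genes 30.7% and 25.5%), with *Serpina3n* (2.94), *Cd109* (2.46), *C3* (2.43) and *Cd44* (1.39) the largest, and 7 of the 20 listed were too low to test.

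**Figure D3:**
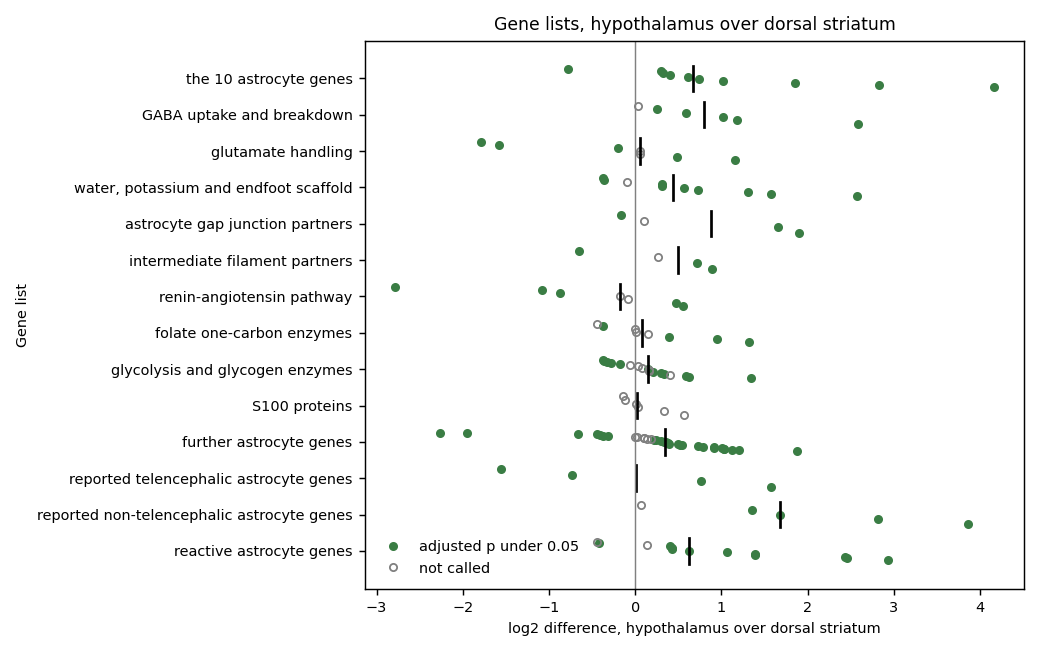
Each point is 1 gene of a list (y axis), placed by its log2 difference between HY and DS (x axis), filled where the adjusted p was under 0.05, and the black line is the list's median. The medians run from -0.18 for the renin-angiotensin genes, through 0.05 for glutamate handling, 0.44 for the endfoot genes and 0.80 for GABA uptake, to 1.68 for genes reported for astrocytes outside the telencephalon, with 0.67 for the 10 astrocyte genes.

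Markers of other cells also differed between regions. The 10 oligodendrocyte genes had a median sum of 2518 CPM in HY, 3034 in VS, 2766 in DS and 1391 in MC, the 7 neuronal genes 3516, 3105, 3450 and 7807, the 5 ependymal genes 14.3, 3.39, 2.70 and 1.93, the 7 microglial genes 118, 235, 208 and 151, and the 6 endothelial genes 137, 134, 160 and 152. The 5 precursor genes had 100, 116, 74.6 and 64.1. The 5 tanycyte genes summed to 75.4, 137, 80.1 and 37.4, but did not move together. *Crym* carried the striatal sums, with a median of 103 CPM in VS and 59.1 in DS against 0.90 in HY, whereas *Col25a1* had 53.6 in HY, 32.9 in VS and 18.4 in DS, *Scn7a* had 16.8, 1.70 and 1.09, and *Adm* had 1.21, 0.38 and 0.30. *Rax* had at most 3 counts in any library. Their part in the regional differences was not tested.

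Over the 28 libraries, the genes most like each member in log2 CPM were found by Pearson's r, which here mostly reflects the 4 regions the libraries share. For *Agt* they were *Sparc* (r = 0.99), *Igsf1* (0.98) and *Cd81* (0.98), and for *Slc6a11* they were *Itih3* (0.99), *Itpkb* (0.97) and *Sparc* (0.97). *Gfap* was most like *Agt* (0.95), and then 2310022B05Rik (0.92) and *Sparc* (0.92), while *Gja1* was most like 2310022B05Rik (0.95), *Cd81* (0.95) and *Sparc* (0.95). *Sparc* was thus among the 3 nearest genes of 4 members.

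For *Slc1a2* the nearest genes were *Cacnb4* (0.98), *Hivep2* (0.98) and *Mras* (0.97), and for *Aqp4* they were *Wnt9b* (0.96), *F2r* (0.96) and *Hcrt* (0.95), the last encoding the hypothalamic peptide orexin. *Aldoc* was nearest to *Pla2g7* (0.96), *Paqr8* (0.94) and *Shisa6* (0.93). Likeness was weaker for *S100b* (*Lgi3* 0.89, *Rnf182* 0.85 and *Nacc2* 0.85), *Slc1a3* (*Peg10* 0.87, *Calcr* 0.87 and *Fhl1* 0.86) and *Aldh1l1* (*Dcaf8*, *Cables2* and *Slc17a5*, each 0.83).

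The comparison of KO with WT is the one the study was built on. None of the 10 genes passed the test for KO over WT in any region, where 0.387% of all genes passed in DS, 0.0801% in VS, 0.167% in HY and 0.0334% in MC. At an unadjusted p under 0.05 there were 3 of 10 in DS and none elsewhere, where 7.94% of all genes in DS, 5.4% in VS, 6.01% in HY and 4.33% in MC had such a p. The quasi-likelihood test and DESeq2 also called none. With 1 to 3 libraries per group, these values do not show that the genes were alike between genotypes.

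The 3 in DS were *Agt*, *Gfap* and *Slc6a11*. In DS, *Agt* had 0.899 and 3.85 CPM in WT, 3.47, 3.68 and 15.3 in het and 2.76 and 20.2 in KO. *Gfap* had 9.59 and 15.2 in WT, 21.4, 11.5 and 36.5 in het and 16.3 and 41.7 in KO. *Slc6a11* had 78.5 and 101 in WT, 108, 95.1 and 223 in het and 81.7 and 252 in KO. In each gene the highest library was KO number 8 and the next was het number 6, and the other KO library lay between the WT libraries in *Agt* and *Slc6a11* and just above both in *Gfap*.

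KO over WT in DS was 2.2 ± 0.69 for *Agt* (adjusted p = 0.15), 1.21 ± 0.41 for *Gfap* (adjusted p = 0.21) and 0.89 ± 0.37 for *Slc6a11* (adjusted p = 0.47). Without KO number 8 the values were 0.16 for *Agt*, 0.39 for *Gfap* and -0.13 for *Slc6a11*, and without both DS het number 6 and KO number 8 they were 0.14, 0.38 and -0.13. Without KO number 7 all 3 passed the test, at 3.01, 1.74 and 1.49. Without WT number 2 *Agt* was at 3.62 and did not pass. KO number 8 and het number 6 were the DS libraries highest in choroid plexus genes, 2831 CPM in KO number 8 and 60.5 in het number 6. That list itself passed the test in KO over WT in DS in 5 of 5 genes tested, against 0.387% of all genes. The sum in DS KO number 7 was 3.45 CPM, between the WT libraries (1.20 and 5.89), so these calls rest on KO number 8. In VS, het number 6 had 74.2 CPM of choroid plexus genes and het number 5 had 28.8. Neither was the highest VS library in *Agt*, *Gfap* or *Slc6a11*, but het number 5 was next in each, followed by het number 6. KO number 8, the highest in *Agt* and *Slc6a11*, had 10.4, and het number 4, the highest in *Gfap*, had 10.1. DS KO number 7, in turn, had the highest sum of cortical genes in DS. The part of these markers in the *Agt*, *Gfap* and *Slc6a11* values was not tested. Of the other lists, 3 of 10 oligodendrocyte genes and *Synm* (0.84) passed in KO over WT in DS, against 0.387% of all genes.

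**Figure D4:**
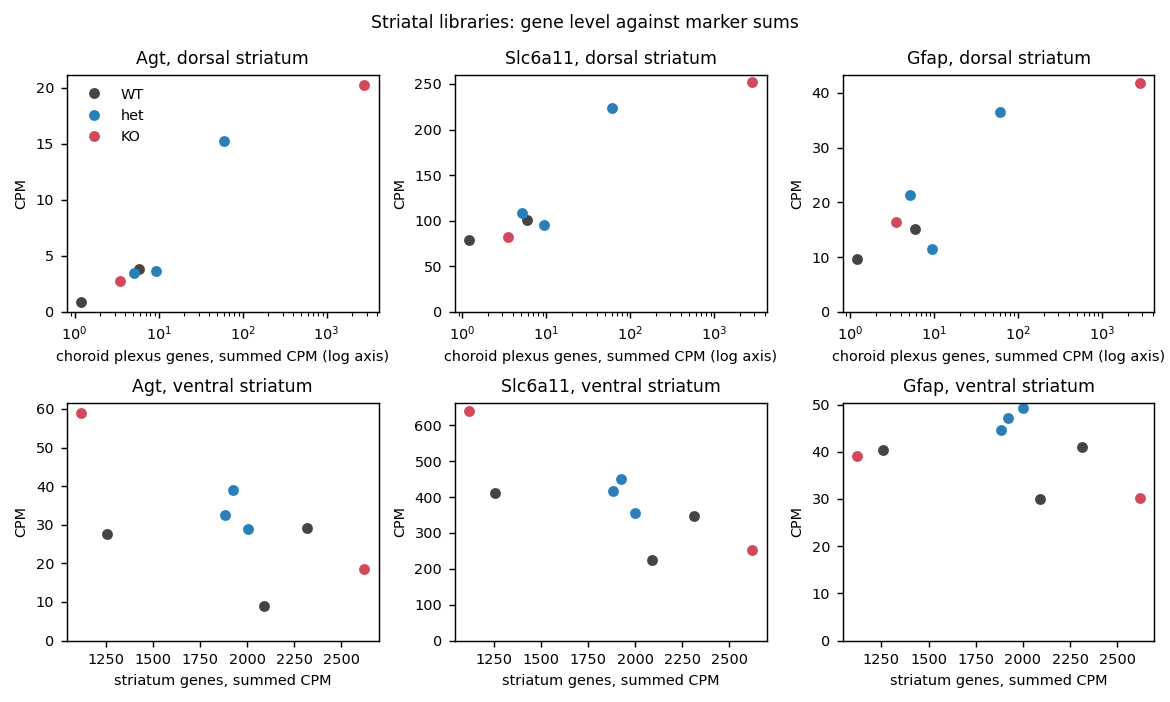
The upper row plots the CPM of *Agt*, *Slc6a11* and *Gfap* (y axis) against the summed CPM of choroid plexus genes (x axis, log) in the 7 DS libraries, and the lower row plots the same genes against summed striatal genes in the 8 VS libraries, coloured by genotype. The 2 DS libraries with 60.5 and 2831 CPM of choroid plexus genes are the highest in all 3 genes, and the VS library with 1120 CPM of striatal genes is the highest in *Agt* and *Slc6a11*.

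VS libraries also spread within a genotype in *Agt* and *Slc6a11*. *Agt* had 8.94, 29.1 and 27.7 CPM in WT, 28.8, 39.0 and 32.6 in het and 18.4 and 58.9 in KO, and *Slc6a11* had 226, 348 and 412 in WT, 357, 450 and 417 in het and 252 and 641 in KO. KO number 8 was highest in both, but in *Gfap* it was at 39.2 CPM, below the VS het libraries (44.5 to 49.3). It also had the lowest sum of striatal genes, 1120 CPM, with WT number 3 next at 1256 and the other 6 at 1885 to 2622. WT number 3 was the highest VS WT library in *Slc6a11* (412) but not in *Agt* (27.7). After subtracting group means, the log2 CPM of *Agt* correlated with that of *Slc6a11* at r = 0.89 and with that of *Gfap* at r = 0.84 over the 28 libraries, which share dissections and depth.

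In HY and MC no member reached an unadjusted p under 0.05 for KO over WT. The HY values of *Agt* were 120, 119 and 125 CPM in WT, 112, 123 and 101 in het and 111 and 69.2 in KO, a KO over WT difference of -0.43 ± 0.54. Among het over WT and KO over het, 4 of 80 values had an unadjusted p under 0.05 and none passed after adjustment (all genes: 0.0868% in DS, 0.0534% in VS, 0.0935% in HY and 0.0134% in MC for het over WT, and 0.461%, 0.0467%, 0.234% and 0.00668% for KO over het). Over all genes, 3.44 to 7.95% had an unadjusted p under 0.05 in these comparisons, so 4 of 80 is near the background. The 4 were *Gfap* (0.88) and *Agt* (1.58) in het over WT in DS, *Aqp4* (-0.27) in KO over het in HY and *Gfap* (-0.81) in KO over het in MC.

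The KO over WT difference itself was compared between DS and each other region. None of the 10 genes passed (edgeR), against 0.00668% of all genes for DS minus VS, 0.154% for DS minus HY and 0.127% for DS minus MC. The values with an unadjusted p under 0.05 were those of *Gfap* against VS (1.31 ± 0.54), HY (1.10 ± 0.53) and MC (1.57 ± 0.65) and of *Agt* against HY (2.63 ± 0.88, adjusted p = 0.33), and the last passed without DS KO number 7 (3.44). Over all genes, 4.35% had such a p against VS, 6.88% against HY and 5.42% against MC. Without DS numbers 6 and 8 these 4 values were 0.48, 0.27, 0.73 and 0.57. In the test of any interaction of region and genotype, none of the 10 passed, none had an unadjusted p under 0.05, and 0.227% of all genes passed.

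**Figure D5:**
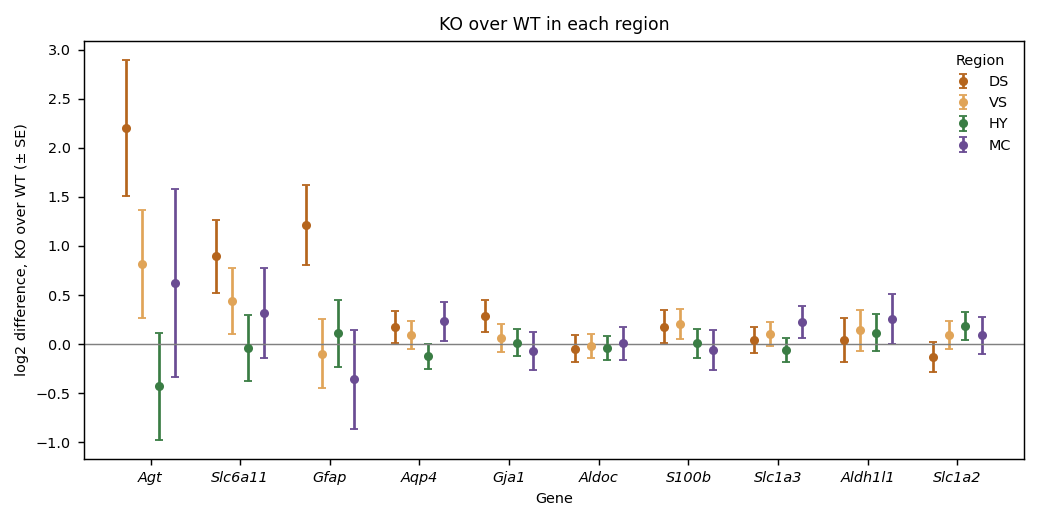
Points give the fitted log2 difference between KO and WT (y axis) with its SE for each gene (x axis), coloured by region. In DS, *Agt* (2.2), *Gfap* (1.21) and *Slc6a11* (0.89) lie highest, and none of the 40 values passed the test.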

How the data were processed

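RNA from 4 brain regions was amplified with the NuGEN Ovation system and sequenced as single-end reads. Per the labels and the study's methods, the authors trimmed reads with Trimmomatic 0.32, removed ribosomal reads with Bowtie2 2.2.3, aligned to GRCm38 with STAR 2.3.1z8, processed alignments with SAMtools 0.1.19, and deposited raw counts per gene from HTSeq 0.6.1p1 in union mode. The strand setting is not given in the sources used here. Rows that name no gene were left out, and 44.8 to 54.2% of tallied reads lay on genes, 3536802 to 5150280 per library, so genes of a few counts are measured with little precision.

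Symbols and exon lengths were taken from GENCODE M21 (GRCm38). Genes above 1 CPM in at least 2 libraries were kept. Differences were fitted in R 4.3.3 with edgeR 4.0.16 (glmFit, glmLRT, TMM scaling), with 1 mean for each of 12 groups over all 28 libraries; a regional difference is the mean of the 3 genotype means in 1 region minus that in the other. A call is a Benjamini-Hochberg adjusted p under 0.05 over all genes tested. Log2 CPM used a prior count of 2. Scripts were tested on simulated data. The 10 genes and all lists were chosen with earlier results of these data known. All 10 are named in each comparison, with up to 4 called genes per other list by size of difference, and the 3 most alike genes by correlation. Some genes that this rule names are not reported here. No pair of libraries of a group was alike within sampling noise (chi-square per degree of freedom 1.78 to 13.3 over 21 pairs). Alternatives were the edgeR quasi-likelihood test, DESeq2 1.42.0, other scaling, no filter, a replicate block, single genotypes and leaving out libraries.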

Additional observations from a re-analysis of the deposited data

Results flagged for a closer look

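In each gene and region the highest and lowest library were set against the others by Dixon's ratio, 40 groups of 5 to 8 libraries in all, of which chance flags about 1 in 20. A library lay far from the others in 5 of them. *Aldh1l1* was lowest in DS het number 4, at 12.43 CPM, and in VS WT number 3, at 11.04. DS het number 4 also had the highest ependymal sum of DS, 18.8 CPM against 2.49 to 7.61 in the others. It had the lowest share of tallied reads on genes in the series, 44.8%. *Agt* was lowest in HY KO number 8, at 69.2 CPM, a library that also had the highest sum of cortical genes in HY, 644 CPM against 251 to 315 in the others. Of those genes, *Rasgrf2* alone had 196 to 273 CPM over the HY libraries, with a median of 232 against 164 in MC. HY KO number 8 was the lowest of HY in *Gfap*, *Aqp4*, *Gja1*, *Slc6a11* and *Aldoc* and the highest in *Slc1a2*, which the ratio did not flag. It was neither in *Slc1a3*, *Aldh1l1* and *S100b*. *Slc6a11* was lowest in MC WT number 2, at 130.3 CPM, the only WT library of that region. *S100b* was highest in HY het number 6, at 150.8 CPM, and that library also had the highest oligodendrocyte sum of HY, 3727 CPM. The part of these markers was not tested.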

How the results depend on the processing

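No regional difference that passed the test changed direction under any alternative run; 1085 of 1138 alternative values also stayed past the threshold and 53 did not, 35 of these from fits to a single genotype. All 40 regional reversals were in differences that had not passed the test. With library size alone, the median of all genes moved by 0.23 (HY over MC), 0.36 (HY over DS), 0.21 (HY over VS), 0.13 (MC over DS) and -0.15 (DS over VS), and the share of calls that were higher went from 52.6 to 74.4%, 54.6 to 80.7%, 54.8 to 79.4%, 50.6 to 65.1% and 50.3 to 25.1%.

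Library size alone reversed *Aldh1l1* in HY over MC (0.018), *Slc1a3* in HY over VS (0.16), *Aqp4* (0.066), *Slc1a3* (0.11) and *Gja1* (0.073) in MC over DS and *Aldoc* in DS over VS (-0.13). *Aldh1l1* in DS over VS became 0.0059 with DESeq2, 0.0051 with RLE scaling, 0.15 in WT and 0.055 in KO libraries. WT libraries alone reversed *Slc1a3* in HY over VS (0.053) and *Gfap* (0.40) and *Gja1* (0.13) in MC over DS. Het libraries alone reversed *Gfap* (0.012) and *Aqp4* (0.074) in MC over DS and *Aldoc* in DS over VS (-0.068). KO libraries alone reversed *Slc1a3* (0.069), *Slc6a11* (-0.037) and *S100b* (-0.0034) in MC over DS and *S100b* in MC over VS (-0.037). Without DS numbers 6 and 8, chosen after seeing the data, *Gfap* (0.20) and *Gja1* (0.0075) in MC over DS and *Slc6a11* in KO over WT in DS (-0.13) reversed.

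The count of the 10 genes called was 5 higher in HY over MC, 2 higher and 0 lower in HY over VS, 1 higher in MC over DS and 0 higher and 1 lower in DS over VS in KO libraries alone, and 0 higher and 0 lower in MC over DS and 1 higher in MC over VS in WT libraries alone, which use fewer libraries. *Agt*, the 1 gene lower in MC over DS, was lost (count 0) with the quasi-likelihood test and without DS numbers 6 and 8. In KO over WT in DS, library size alone gave 3 called and a median of 0.46 against 0.18, beside a shift of all genes of 0.28. *Agt* (2.45) and *Gfap* (1.48) were among those called, but *Slc6a11* (1.17) was not. The remaining called gene had no unadjusted p under 0.05 in the main edgeR fit.

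Leaving out 1 library at a time gave 0 to 1 lower in MC over DS, 0 to 3 called in KO over WT in DS, 0 to 1 in the difference of that effect between DS and HY (*Agt*, without DS KO number 7), and a median of -0.032 (without VS KO number 8) to 0.15 in KO over WT in VS. It moved *Gfap* (-0.57 to 0.038), *Gja1* (-0.090 to 0.013) and *Slc1a3* (-0.062 to 0.018) in MC over DS, *S100b* in MC over VS (-0.0042 to 0.15), *Aldh1l1* (-0.074 to 0.054), *Aldoc* (-0.027 to 0.095) and *S100b* (-0.10 to 0.050) in DS over VS and *Slc6a11* in KO over WT in DS (-0.13 to 1.49). The single WT library of MC could not be left out. Where 1 library remained in a group, it was assumed to vary like the others. Genes called in KO over WT went from 58 to 12 in DS, 12 to 4 in VS, 25 to 4 in HY and 5 to 3 in MC with the quasi-likelihood test, and to 21, 6, 6 and 1 with DESeq2.

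Libraries of the same number deviated together no more than others (mean r 0.0070 over 34 pairs, against -0.0042 over 56), and the numbers were not taken as pairs in the main fit. The deviations were taken from means of few libraries, so this comparison cannot show whether a number marks a mouse. Each number occurred in a single genotype. The replicate block reversed *Slc1a3* in MC over DS (0.021), let *Aqp4* pass in MC over VS (-0.22) and changed no other call of the 10 genes. Lengths from the longest transcript in place of all exons moved the level per length of 7 genes. Causes were not tested. *Agt* in MC and DS WT rests on few reads, which limits its folds.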
